A study of Mus musculus with 6 samples.

Results

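The 10 genes described here form the core of the G1 cell-cycle machinery in the retina after deletion of *Yap*. They are the D-type cyclins *Ccnd1*, *Ccnd2* and *Ccnd3*, the cyclin-dependent kinases *Cdk2*, *Cdk4* and *Cdk6*, the Cip/Kip inhibitors *Cdkn1a*, *Cdkn1b* and *Cdkn1c*, and *Mki67*, the gene of the proliferation marker Ki67. They were chosen by name, with no threshold on a measured value but with earlier results of these data known, and all 10 were found by symbol among the 55421 genes of the count table. RNA was measured by stranded RNA-seq in 3 control and 3 *Yap* cKO retinas, 1 retina from each of 6 mice aged 2 months. Control mice were Yapfl/fl (animals YR612, YR613 and YR615). *Yap* cKO mice were Yapfl/fl;RaxCreERT2 (animals YR711, YR713 and YR714). Mice of both groups carried the floxed allele and received 4-hydroxytamoxifen at postnatal days 10 and 14, so that only the Cre differed by design. The *Rax* promoter drives this tamoxifen-activated Cre in Müller glia, and also in the non-pigmented epithelium of the ciliary body, whereas RNA was taken from the whole dissected retina.

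Cells commit to division in G1. D-type cyclins bind and activate CDK4 and CDK6, which phosphorylate the retinoblastoma protein and release E2F transcription factors, and CDK2 with cyclin E carries the cell into S phase. The Cip/Kip proteins p21 (*Cdkn1a*), p27 (*Cdkn1b*) and p57 (*Cdkn1c*) bind cyclin-CDK complexes and restrain them, and the INK4 proteins block CDK4 and CDK6 alone. In the adult mouse retina neurons have left the cell cycle for good and Müller glia rest outside it, a state in which p27 is known to take part, while YAP is a coactivator of TEAD factors best known for driving proliferation genes.

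Levels are given as TPM, a transcript abundance computed from the counts and each gene's exonic length and scaled to the same total in every retina, so that they can be compared between genes. Changes are log2 fold changes, *Yap* cKO against control, from edgeR's quasi-likelihood test across the 16575 genes with enough counts. A gene was called when its Benjamini-Hochberg adjusted p was at most 0.05, its fold change at least 1.5 and its mean at least 5 TPM in 1 of the groups. Total counts ranged from 24261799 to 35067068 per retina. *Yap1* itself was at 9.48, 9.52 and 9.83 TPM in the control retinas and at 3.99, 3.76 and 3.94 TPM in the *Yap* cKO retinas. It fell by 1.36 on the log2 scale (SE 0.093, adjusted p = 0.000282 by edgeR's quasi-likelihood test). The tissue label was checked with 5 rod genes, whose summed level lay between 47763 and 54144 TPM in all 6 retinas. By the counts of *Xist* and *Ddx3y*, 1 of the 3 control and 2 of the 3 *Yap* cKO retinas came from females. In these bulk samples, fewer cells of a type and less RNA per cell cannot be told apart.

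None of the members passed the call rule. Of the 10 genes, 9 had enough counts to be tested, and *Mki67* did not. Of the 9, 0 were called, against 0.796% of all genes tested, and 0 reached the adjusted p alone, against 1.49% of all genes. At an unadjusted p under 0.05 by edgeR's quasi-likelihood test, 4 of the 9 stood out (*Ccnd2*, *Ccnd3*, *Cdk2* and *Cdkn1c*), against 21.4% of all genes. All 4 were lower in *Yap* cKO retinas, the direction taken at that threshold by 9.42% of all genes. In all, 6 of the 9 had a log2 fold change below 0 and 3 above it, with a median of -0.17, while the median of all genes tested was 0.0017. With the other tools, the number called was 1 by DESeq2 (1.59% of all genes), 1 by edgeR's likelihood ratio test (1.76%) and 0 by limma-voom (0.851%). It was also 1 with no filter on low counts (1.22%) and with offsets corrected for gene length (0.851%). That 1 gene was *Cdkn1c* in each. At the adjusted p alone, 3 members were lower by DESeq2 (5.38% of all genes), by the likelihood ratio test (6.18%) and with no filter (6.19%), namely *Ccnd2*, *Ccnd3* and *Cdkn1c*. With the length correction they were 2 (2.5%), *Ccnd2* and *Cdkn1c*, and by limma-voom 0 (1.64%).

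**Figure D1:**
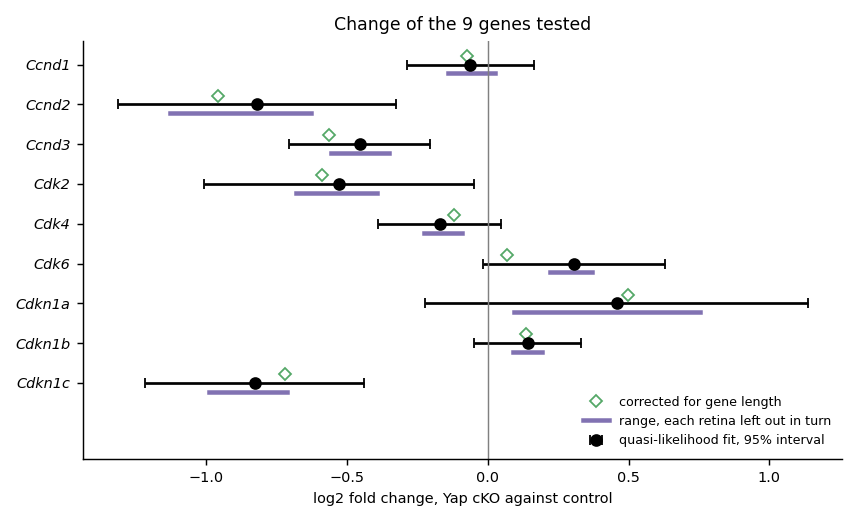
The horizontal axis gives the log2 fold change of each of the 9 tested genes, *Yap* cKO against control, with points for the estimate and bars for the 95% interval. The intervals of *Ccnd2*, *Ccnd3*, *Cdk2* and *Cdkn1c* lie below 0, and the other 5 include 0.

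The levels spanned a wide range. In control retinas the order was *Cdkn1b* (mean 88.2 TPM), *Cdk4* (42.1), *Cdkn1c* (33.9), *Ccnd1* (29.3), *Ccnd3* (22.3), *Ccnd2* (4.00), *Cdkn1a* (3.79), *Cdk2* (1.15), *Cdk6* (0.977) and *Mki67* (0.0091). Neighbours in that order whose 3 retinas overlapped were *Cdkn1c* with *Ccnd1*, *Ccnd2* with *Cdkn1a*, and *Cdk2* with *Cdk6*. In *Yap* cKO retinas *Ccnd1* stood above *Cdkn1c*, *Cdkn1a* above *Ccnd2* and *Cdk6* above *Cdk2*. Of these 3 pairs, the *Yap* cKO retinas of *Cdkn1a* and *Ccnd2* overlapped and those of the other pairs were apart. In both groups the highest levels were those of 1 inhibitor, p27, and 1 kinase, CDK4.

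**Figure D2:**
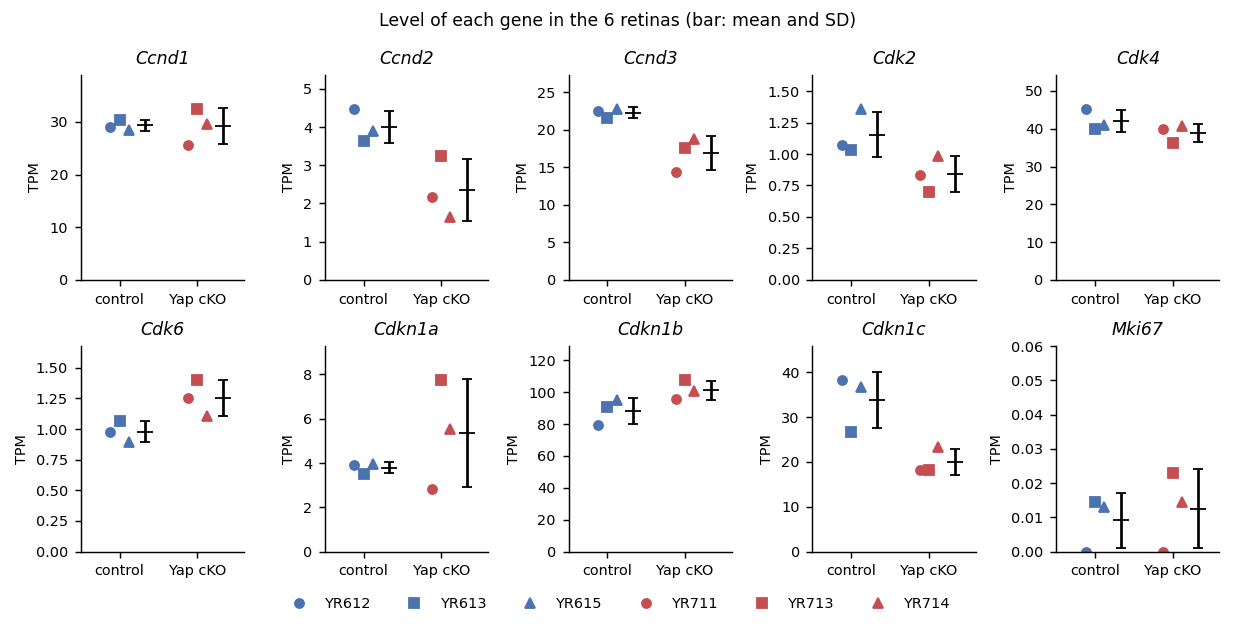
Each panel gives the TPM of 1 gene in the 3 control and the 3 *Yap* cKO retinas (points), with the mean and SD as bars. By TPM the groups do not overlap for *Ccnd2*, *Ccnd3*, *Cdk2*, *Cdk6*, *Cdkn1b* and *Cdkn1c*, and *Mki67* stays near 0 in every retina.

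The D-type cyclins sense growth signals and are the regulatory partners of CDK4 and CDK6. The 3 genes had unlike values: *Ccnd1* showed no detectable difference, while the estimates for *Ccnd2* and *Ccnd3* were lower and missed the adjusted threshold of the quasi-likelihood test, though not that of some other tools. *Ccnd1* (ENSMUSG00000070348, GRCm38 chr7:144929931-144939925, minus strand), the cyclin of retinal progenitors, was at 29.1, 30.4 and 28.5 TPM in the controls and at 25.6, 32.5 and 29.5 TPM in the *Yap* cKO retinas. The *Yap* cKO values lay on both sides of the control values. Its log2 fold change was -0.06 (SE 0.10, 95% interval -0.29 to 0.16, adjusted p = 0.742 by edgeR's quasi-likelihood test).

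*Ccnd2* (ENSMUSG00000000184, chr6:127125162-127152193, minus strand) was the scarcest D-type cyclin. It was at 4.48, 3.64 and 3.89 TPM in the controls and at 2.18, 3.24 and 1.63 TPM in the *Yap* cKO retinas, from 105 to 281 counts. Every *Yap* cKO retina was below every control retina, with YR713 closest to them. The fitted log2 fold change was -0.82 (SE 0.22, 95% interval -1.31 to -0.32, adjusted p = 0.098 by edgeR's quasi-likelihood test). Its mean also lay below the 5 TPM of the call rule in both groups. The adjusted p was 0.0435 without YR713, 0.0454 without control YR613, and 0.333 without control YR612, where the estimates were -1.13, -0.90 and -0.71. With offsets corrected for gene length it was 0.047, at an estimate of -0.96. DESeq2 gave *Ccnd2* an adjusted p of 0.00974, edgeR's likelihood ratio test 0.0155, limma-voom 0.084 and the fit with no filter on low counts 6.33e-06. With sex as a covariate in the quasi-likelihood test it was 0.112.

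*Ccnd3* (ENSMUSG00000034165, chr17:47505051-47599691, plus strand), the D-type cyclin common in differentiated tissues, was at 22.5, 21.5 and 22.8 TPM in the controls and at 14.4, 17.6 and 18.7 TPM in the *Yap* cKO retinas. The groups did not overlap, and the control retinas lay within a narrow range. The estimated log2 fold change was -0.45 (SE 0.11, 95% interval -0.70 to -0.21, adjusted p = 0.081 by edgeR's quasi-likelihood test). Without control YR613 the adjusted p was 0.0338, and without YR714 it was 0.0258, at log2 fold changes of -0.50 and -0.55. In those fits 8.84% and 5.89% of all genes reached the adjusted p. DESeq2 gave *Ccnd3* an adjusted p of 0.0108, edgeR's likelihood ratio test 0.0124, limma-voom 0.0735 and the fit with no filter on low counts 0.000498, at changes smaller than the 1.5-fold of the call rule. With sex as a covariate in the quasi-likelihood test the adjusted p was 0.0618. RefSeq gives 2 start sites for *Ccnd3*. Among the members with a promoter window, from 250 bases before a RefSeq start, the window of its second start, which lies inside the gene, is shown because it was the only one with the core letters of a TEAD site, the sequence bound by YAP's partners. The stretch is chr17:47593387-47593466 (GRCm38.p6, plus strand, RefSeq), and capitals mark GGAATG, searched on both strands and read here as CATTCC, 17 bases before the start.
Ccnd3: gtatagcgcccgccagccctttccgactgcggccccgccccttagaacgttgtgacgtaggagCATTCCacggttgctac
Of all 32851 promoter windows, 12.6% hold these letters. The motifs printed for this and the later windows were chosen after the windows were read, and a match is a description of the letters only.

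Together the D-type cyclins amounted to 55.6 ± 0.490 TPM in the controls and 48.4 ± 5.73 TPM in the *Yap* cKO retinas (SD, n = 3; exact two-sided permutation p = 0.1, the smallest that 3 against 3 can give). *Ccnd1* supplied 52.7 ± 1.75% of that sum in control and 60.3 ± 0.960% in *Yap* cKO retinas. The share was 51.9, 54.8 and 51.6% in control and 60.7, 61.0 and 59.2% in *Yap* cKO retinas, which leaves a gap between the groups. The difference was 7.54 percentage points (exact permutation p = 0.1, 0.15 after Benjamini-Hochberg adjustment over 15 comparisons of sums, shares and ratios). Leaving out any 1 retina gave differences between 6.98 and 8.55 points. *Ccnd3* supplied 40.1 ± 1.33% and 34.9 ± 2.38%, and *Ccnd2* 7.20 ± 0.723% and 4.84 ± 1.43%, with no overlap of the groups in either. The ratio of *Ccnd1* to *Ccnd3* was 1.32 ± 0.0866 in control and 1.73 ± 0.142 in *Yap* cKO retinas (exact permutation p = 0.1).

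**Figure D3:**
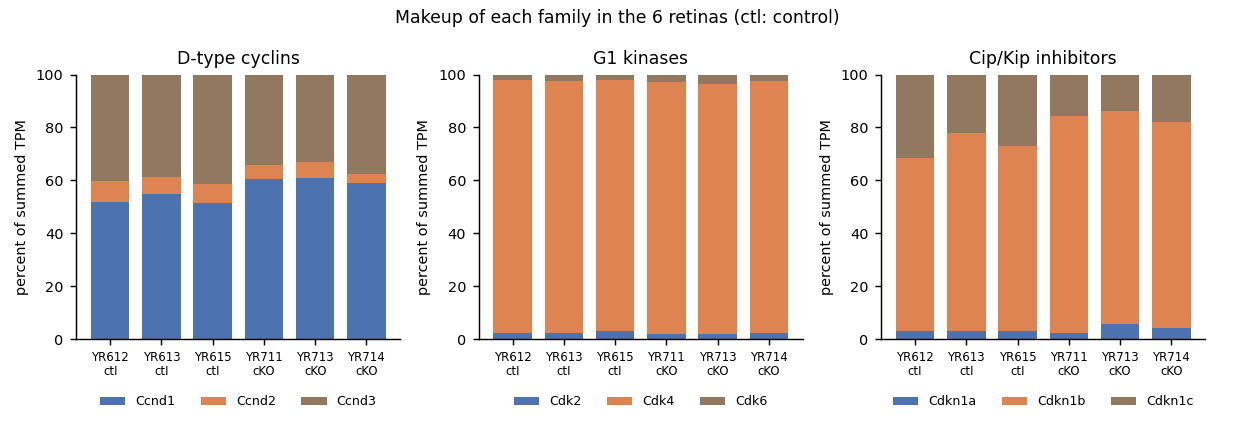
Stacked bars give, for each retina, the percent of the summed TPM that each gene takes within the D-type cyclins, the G1 kinases and the Cip/Kip inhibitors. *Ccnd1* takes more of its family in every *Yap* cKO retina than in any control retina, *Cdkn1c* takes less of its family, and *Cdk4* makes up about 95% of the kinases in both groups.

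Among the kinases, *Cdk4* (ENSMUSG00000006728, chr10:127063534-127067920, plus strand) was the abundant partner of the D-type cyclins. It was at 45.3, 39.9 and 41.0 TPM in the controls and at 39.8, 36.3 and 40.7 TPM in the *Yap* cKO retinas. The groups overlapped. The log2 fold change was -0.17 (SE 0.097, 95% interval -0.39 to 0.05, adjusted p = 0.327 by edgeR's quasi-likelihood test).

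*Cdk6* (ENSMUSG00000040274, chr5:3341485-3531008, plus strand) encodes the other kinase of the D-type cyclins, and it was low, at 0.975, 1.06 and 0.893 TPM in the controls and at 1.25, 1.40 and 1.11 TPM in the *Yap* cKO retinas. The lowest *Yap* cKO retina stood just above the highest control retina. Its log2 fold change was 0.31 (SE 0.14, 95% interval -0.02 to 0.63, adjusted p = 0.254 by edgeR's quasi-likelihood test). *Cdk6* has the longest exonic length of the members, 13989 bases. Across all genes tested, log2 fold change was higher for longer genes (Spearman's rho 0.391 with exonic length across 16575 genes, which are not independent replicates). With offsets that correct for length, rho was 0.0337 and the log2 fold change of *Cdk6* was 0.07 (adjusted p = 0.823 by edgeR's quasi-likelihood test).

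*Cdk2* (ENSMUSG00000025358, chr10:128697939-128705031, minus strand), the kinase that acts with cyclins E and A, was at 1.07, 1.03 and 1.36 TPM in the controls and at 0.831, 0.702 and 0.988 TPM in the *Yap* cKO retinas. The groups were apart by a small gap, on 33 to 65 counts per retina. The fitted log2 fold change was -0.53 (SE 0.21, 95% interval -1.01 to -0.05, adjusted p = 0.2 by edgeR's quasi-likelihood test). Its exons overlap 34 bases of *Pmel*, a melanosome gene on the opposite strand that fell by 1.89 on the log2 scale (adjusted p = 0.0347 by edgeR's quasi-likelihood test). Longer overlaps with an expressed gene on the opposite strand were those of *Cdk4* with *Tspan31* (641 bases), *Ccnd1* with *LTO1* (1100 bases) and *Ccnd3* with *Bysl* (361 bases). No member shared exon bases with a gene on its own strand. Counting used strand, and the part of opposite-strand reads in these counts was not tested.

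The kinases summed to 44.2 ± 2.80 TPM in the controls and 41.0 ± 2.33 TPM in the *Yap* cKO retinas (SD, n = 3; exact permutation p = 0.2). *Cdk4* supplied 95.2 ± 0.461% of this sum in control and 94.9 ± 0.308% in *Yap* cKO retinas (exact permutation p = 0.6). The share of *Cdk6* was 2.22 ± 0.273% in control and 3.07 ± 0.528% in *Yap* cKO retinas (exact permutation p = 0.1, adjusted 0.15), a difference in the same direction as the log2 fold change that the length correction reduced.

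The Cip/Kip inhibitors held the clearest difference. *Cdkn1c* (ENSMUSG00000037664, chr7:143458339-143461050, minus strand) encodes p57, an imprinted inhibitor that is expressed from the maternal allele and acts as cells leave the cycle. It was at 38.2, 26.8 and 36.8 TPM in the controls and at 18.3, 18.3 and 23.3 TPM in the *Yap* cKO retinas, from 238 to 577 counts. Every *Yap* cKO retina was below every control retina, and control YR613 was the nearest of the controls. The estimated log2 fold change was -0.83 (SE 0.17, 95% interval -1.22 to -0.44), which leaves 56.4% of the control level (43.0 to 73.8%). The adjusted p was 0.0532 by edgeR's quasi-likelihood test, just outside the threshold, and *Cdkn1c* ranked at place 274 of the 16575 genes by p.

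The call of *Cdkn1c* turned on the retinas and the tool. Without control YR613 the log2 fold change was -0.99 with an adjusted p of 0.00738, and without YR714 it was -0.97 with an adjusted p of 0.0172, so that the gene was called in both, as were 3.06% and 2.66% of all genes tested. Leaving out any other retina gave estimates between -0.77 and -0.71 and adjusted p values between 0.121 and 0.245 by edgeR's quasi-likelihood test. With the length correction the log2 fold change was -0.72 and the adjusted p 0.0308. DESeq2 gave an adjusted p of 0.000437 and edgeR's likelihood ratio test 0.00112. Limma-voom gave 0.0551, outside the threshold. So did the quasi-likelihood test with sex as a covariate (0.059), with median-ratio scaling (0.0516) and with library size scaling (0.0538).

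Markers of several tissues next to the retina were also lower in *Yap* cKO retinas. The 6 genes listed for ciliary body epithelium summed to 87.2 to 93.9 TPM in the controls and 28.7 to 39.7 TPM in the *Yap* cKO retinas. Of the 5 tested, 2 fell at the adjusted p, *Optc* with a log2 fold change of -3.41 and *Ltbp2* with -4.08. The 7 melanin genes summed to 75.0 to 81.9 TPM in the controls and 17.9 to 50.6 TPM in the *Yap* cKO retinas, where 1 (*Pmel*) fell, and the 6 fibroblast genes to 14.6 to 16.3 TPM and 2.98 to 4.54 TPM, where 2 of 4 tested fell (*Ogn* with -2.62 and *Col1a2* with -2.16). The other fibroblast genes tested were *Col1a1*, at 0.08 (adjusted p = 0.91), and *Col3a1*, at -0.0042 (adjusted p = 0.996, both by edgeR's quasi-likelihood test), and *Ogn* and *Col1a2* made up most of the sum. Genes of the retinal pigment epithelium, the pigmented layer behind the photoreceptors, summed to 564 to 611 TPM in control retinas and to 175, 324 and 595 TPM in YR711, YR713 and YR714, and 0 of 5 reached the adjusted p, with 1 at an unadjusted p under 0.05 by edgeR's quasi-likelihood test. *Cdkn1c* stood at 18.3 TPM in both YR711 and YR713, whose melanin genes summed to 17.9 and 50.6 TPM. Among the *Yap* cKO retinas *Ccnd2* was highest in YR713, which had the highest ciliary body and melanin sums. In the same group *Cdkn1c* (23.3 TPM) and *Ccnd3* (18.7 TPM) were highest in YR714. That retina had the group's lowest ciliary body sum (28.7 TPM) and fibroblast sum (2.98 TPM) and its highest pigment epithelium sum (595 TPM). Of its ciliary body sum, 21.5 TPM came from *Col9a1*, whose groups overlapped (log2 fold change -0.24, adjusted p = 0.2 by edgeR's quasi-likelihood test). Within the fibroblast list, *Col1a1* was highest in YR714, at 0.379 TPM. No gene listed for ciliary body, melanin cells or pigment epithelium was at 0 in all retinas. The part of these tissues in the values of *Cdkn1c*, *Ccnd2* and *Ccnd3* was not tested. Müller glia genes summed to 5384 to 5755 TPM in the controls and 4959 to 5575 TPM in the *Yap* cKO retinas, and 0 of 7 reached the adjusted p. At an unadjusted p under 0.05 by edgeR's quasi-likelihood test there were 3 of 7, against 21.4% of all genes. These were *Rlbp1* at -0.36 with no overlap of the groups (adjusted p = 0.054), *Glul*, which made up most of the sum, at -0.21 (adjusted p = 0.185), and *Kcnj10* at 0.28 (adjusted p = 0.126, all by edgeR's quasi-likelihood test). In the lists for other cell types the sole gene at the adjusted p was the bipolar cell receptor *Grm6*, which rose by 0.46 on the log2 scale (adjusted p = 0.0249 by edgeR's quasi-likelihood test).

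**Figure D4:**
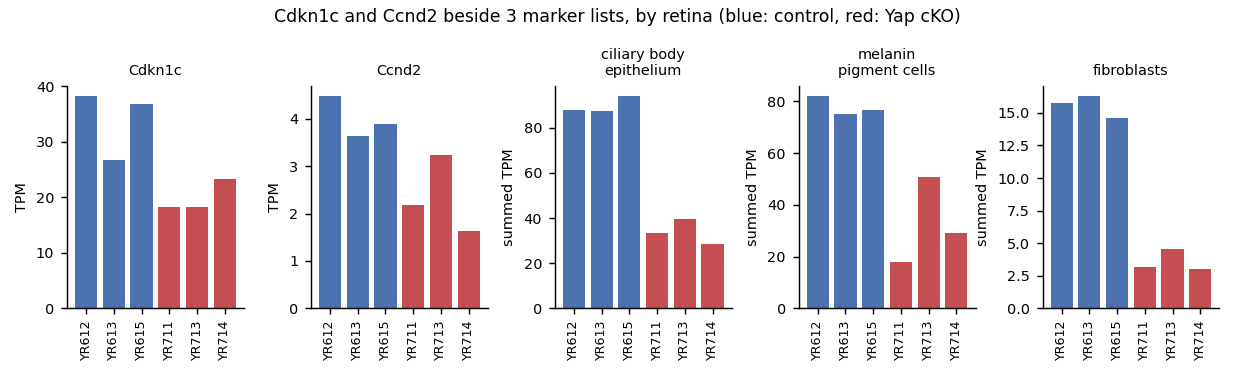
Bars give, for each retina, the TPM of *Cdkn1c* and *Ccnd2* and the summed TPM of 3 marker lists, with control retinas in blue and *Yap* cKO retinas in red. All 5 quantities are lower in every *Yap* cKO retina than in any control retina, for example the ciliary body list at 87.2 to 93.9 TPM against 28.7 to 39.7 TPM. The pigment epithelium list, not shown, was at 595 TPM in YR714, within the control range of 564 to 611 TPM.

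*Cdkn1b* (ENSMUSG00000003031, chr6:134920401-134925513, plus strand), which encodes p27, was the most abundant member. It was at 79.2, 90.6 and 94.9 TPM in the controls and at 95.5, 107 and 101 TPM in the *Yap* cKO retinas. The lowest *Yap* cKO retina was just above the highest control retina by TPM. The groups overlapped when counts were scaled for sequencing depth and not for gene length (CPM). By TPM, 6 of the 9 tested members did not overlap between the groups, against 24.3% of all genes tested, and by CPM 5 did not, against 24.6%. The log2 fold change of *Cdkn1b* was 0.14 (SE 0.084, 95% interval -0.05 to 0.33, adjusted p = 0.35 by edgeR's quasi-likelihood test).

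*Cdkn1a* (ENSMUSG00000023067, chr17:29090976-29100727, plus strand), which encodes p21 and is a classical p53 target, was at 3.92, 3.49 and 3.96 TPM in the controls and at 2.82, 7.73 and 5.52 TPM in the *Yap* cKO retinas. The control retinas were close together, whereas the *Yap* cKO retinas reached from below all controls (YR711) to well above them (YR713). The log2 fold change was 0.46 (SE 0.30, 95% interval -0.22 to 1.14, adjusted p = 0.393 by edgeR's quasi-likelihood test). It was 0.75 without YR711, 0.09 without YR713 and 0.17 with sex as a covariate. The window before its first RefSeq start is shown because it holds both CATG cores of a p53 response element, at the spacing p53 binds. The stretch is chr17:29090899-29090978 (GRCm38.p6, plus strand, RefSeq), and capitals mark CATGNNNNNNCATG, searched on both strands and found 48 bases before the start.
Cdkn1a: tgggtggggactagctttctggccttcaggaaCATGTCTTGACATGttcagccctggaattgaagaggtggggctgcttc
Of all promoter windows, 0.49% hold this pattern.

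The summed Cip/Kip level was 126 ± 8.42 TPM in the controls and 126 ± 8.75 TPM in the *Yap* cKO retinas (SD, n = 3; exact permutation p = 1). Within it the share of *Cdkn1c* was 31.5, 22.1 and 27.1% in control and 15.7, 13.7 and 18.0% in *Yap* cKO retinas. The groups did not overlap, and the difference was -11.1 percentage points (exact permutation p = 0.1, adjusted 0.15). The share of *Cdkn1b* was 65.3, 75.0 and 69.9% in control and 81.9, 80.5 and 77.8% in *Yap* cKO retinas (exact permutation p = 0.1, adjusted 0.15). The ratio of *Cdkn1b* to *Cdkn1c* was 2.68 ± 0.662 in control and 5.14 ± 0.770 in *Yap* cKO retinas, while the share of *Cdkn1a* was 3.01 ± 0.192% and 4.16 ± 1.69% (exact permutation p = 0.4, adjusted 0.462).

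*Mki67* (ENSMUSG00000031004, chr7:135689784-135716361, minus strand), whose protein is present in cycling cells and absent from resting ones, was near 0 in both groups. It had 0, 1 and 1 counts in control retinas and 0, 2 and 1 counts in *Yap* cKO retinas. A count of 0 allows up to 3 counts, which corresponds to 0.0452 TPM in YR612 and 0.0467 TPM in YR711, the retinas with no count. All retinas were at or under 3 counts, so that no fold change is given. Such limits cover counting error only. The window before its start is shown because it holds 2 copies of the CHR element, a sequence bound by the complexes that keep mitotic genes silent in resting cells. The stretch is chr7:135716445-135716524 (GRCm38.p6, minus strand, RefSeq), printed 5′ to 3′ on the gene's strand like the other windows, and capitals mark TTTGAA, searched on both strands and found 116 and 98 bases before the start.
Mki67: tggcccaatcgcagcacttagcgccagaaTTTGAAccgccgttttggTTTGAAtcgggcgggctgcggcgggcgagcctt
Of all promoter windows, 16.0% hold at least 1 such match. RefSeq windows were used for 7 of the 10 members (9 windows), and those of *Ccnd1*, *Ccnd2* and *Cdkn1c* were not analysed here.

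The wider pathway was read from 9 lists with 99 genes in all, 80 of them tested. By edgeR's quasi-likelihood test 0 of the 80 reached the adjusted p, and 20 (25.0%) had an unadjusted p under 0.05, against 21.4% of all genes. DESeq2 put 3 at the adjusted p (5.38% of all genes), edgeR's likelihood ratio test 3 (6.18%) and limma-voom 0 (1.64%). By DESeq2 and by the likelihood ratio test the 3 were *Rb1*, which was higher, and *Sgce* and *Osbpl5*, which were lower. The number was 8 of 97 tested with no filter on low counts (6.19%) and 4 with offsets corrected for gene length (2.5%). All 3 were among the 8, and *Sgce* and *Osbpl5* were among the 4. The 3 retinoblastoma family genes, which encode the substrates of the D-type cyclin kinases, had log2 fold changes above 0, from 0.08 for *Rbl1* to 0.43 for *Rb1*, with a median of 0.16 (0.08 with the length correction). *Rb1* was at 23.5, 31.3 and 24.7 TPM in the controls and at 42.5, 35.0 and 33.7 TPM in the *Yap* cKO retinas, with no overlap (adjusted p = 0.0988 by edgeR's quasi-likelihood test). Of 10 E2F and DP genes, 8 were tested, 4 above 0 and 4 below, from -0.25 (*E2f2*) to 0.25 (*Tfdp1*).

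The INK4 inhibitors of CDK4 and CDK6 were led by *Cdkn2d* at 67.2 ± 7.26 TPM in the controls and 64.6 ± 4.83 TPM in the *Yap* cKO retinas, a level between those of *Cdk4* and *Cdkn1b*. All 3 tested had log2 fold changes below 0, from -0.06 for *Cdkn2c* to -0.94 for *Cdkn2b*, whereas with the length correction 2 were above 0 and 1 below. *Cdkn2b*, which encodes p15, was at 2.07, 1.78 and 2.15 TPM in the controls and at 0.563, 0.992 and 1.68 TPM in the *Yap* cKO retinas, on at most 23 counts (adjusted p = 0.192 by edgeR's quasi-likelihood test). The fourth, *Cdkn2a*, reached at most 2 counts. *Cdkn2d* was named here after its values were seen, for its level.

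Genes of cyclins E, A and B and those listed for S phase and mitosis spanned a wide range of levels. Of the 7 cyclin E, A and B genes with *Cdk1*, 5 were tested, with 4 below 0 and 1 above, from -0.19 (*Ccne1*) to 0.12 (*Ccnb2*). Of 26 genes of S phase and mitosis, 19 were tested, with 13 below 0 and 6 above and a median of -0.14. *Pcna*, the sliding clamp of DNA polymerases that also serves in repair, was at 103 ± 4.97 TPM in the controls and 106 ± 9.76 TPM in the *Yap* cKO retinas. The mitotic genes *Top2a* and *Aurkb* held at most 3 and 1 counts. Other mitotic genes of the list ranged from at most 6 counts for *Bub1* to at most 78 for *Tpx2*. *Pcna*, *Top2a*, *Aurkb*, *Bub1* and *Tpx2* were named after their values were seen. The highest estimate was that of *Cenpf*, at 1.01, on at most 25 counts per retina and without the length correction. It corresponds to 0.0821 ± 0.0229 TPM in the controls and 0.173 ± 0.0265 TPM in the *Yap* cKO retinas (adjusted p = 0.135 by edgeR's quasi-likelihood test). The lowest was that of *Aurka*, at -0.50 (adjusted p = 0.276 by the same edgeR test). The 6 genes of the MCM helicase that opens replication origins (*Mcm2* to *Mcm7*) all had log2 fold changes below 0, also with the length correction, from -0.14 for *Mcm4* to -0.39 for *Mcm5*. They too were picked out after their values were seen. Of 11 genes of kinase activation and turnover, 9 lay above 0 and 2 below (8 and 3 with the length correction), from -0.43 for *Cks1b*, a subunit that helps to degrade p27, to 0.33 for *Wee1*, a kinase that inhibits CDK1.

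**Figure D5:**
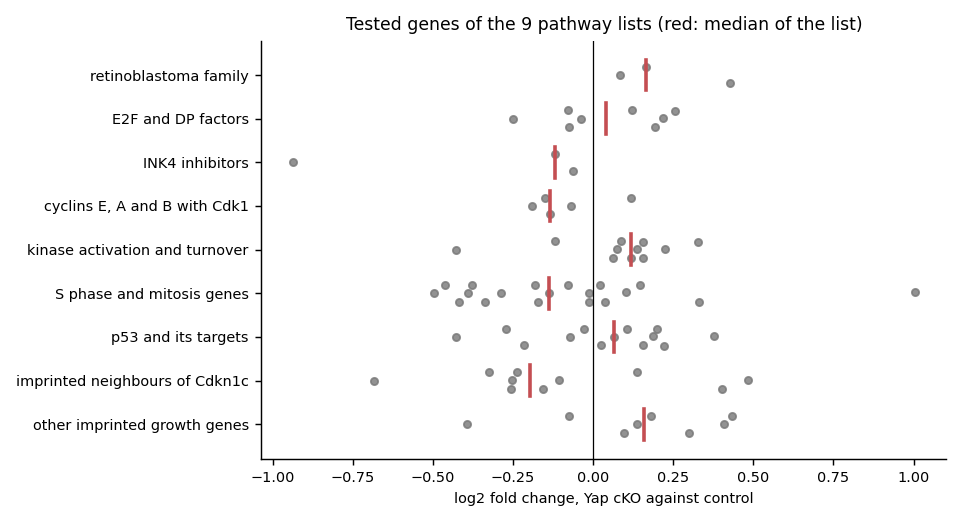
Each point is the log2 fold change, *Yap* cKO against control, of 1 of the 80 tested genes of the 9 pathway lists, by list, with the median of the list in red. The medians lie between -0.20 and 0.16, and the points furthest from 0 are *Cenpf* at 1.01 and *Cdkn2b* at -0.94, on at most 25 and 23 counts per retina.

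*Cdkn1c* lies in an imprinted cluster on chromosome 7. Of 15 listed neighbours 10 were tested, with 7 below 0 and 3 above and a median of -0.20 (-0.12 with the length correction). The estimates reached from -0.68 for *Kcnq1* (adjusted p = 0.372) to 0.48 for *Kcnq1ot1* (adjusted p = 0.303, both by edgeR's quasi-likelihood test), the long noncoding RNA whose paternal expression silences *Cdkn1c* on that chromosome. *Kcnq1ot1* was at 0.189, 0.367 and 0.171 TPM in the controls and at 0.340, 0.417 and 0.291 TPM in the *Yap* cKO retinas, which overlap. Up to 338 counts gave these low TPM values, because the transcript is long. Its estimate is without the length correction, and log2 fold changes were higher for longer genes across all genes tested. The length-corrected fit also covered *Kcnq1ot1*, but its estimate from that fit is not given here. *Osbpl5* had the smallest adjusted p of the 80 pathway genes, 0.086 by edgeR's quasi-likelihood test, at a log2 fold change of -0.33. *Phlda2* and *Ascl2* were listed at 0 counts in every retina. Of 9 imprinted growth genes from elsewhere in the genome, 8 were tested, with 6 above 0 and 2 below and a median of 0.16 (0.07 with the length correction), from -0.39 (*Sgce*) to 0.43 (*Meg3*).

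The p53 list was read beside *Cdkn1a*, and a link to the values of that gene was not tested. Of its 14 genes 13 were tested, with 8 above 0 and 5 below and a median of 0.06. The highest was *Gadd45a*, a stress-response gene, at 0.38 (adjusted p = 0.19), and the lowest *Bbc3*, which encodes the cell death protein PUMA, at -0.43 (adjusted p = 0.369, both by edgeR's quasi-likelihood test).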

How the data were processed

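Retinal RNA from 3 control and 3 *Yap* cKO mice was sequenced as stranded, paired-end libraries. The authors aligned reads to GRCm38 with STAR 2.7.3a and counted them per gene with featureCounts 1.6.2 (strand setting 2, annotation release 98). The deposited values are counts with no normalization, 1 column per retina, with each gene's exonic length. TPM was computed here from both. Groups were taken from the genotype labels. Age was taken from the name of the deposited counts, and the study's methods give the same age. The labels name no litter or batch.

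Counts were filtered with filterByExpr, scaled by TMM (factors 0.986 to 1.02) and tested with edgeR 4.0.16 (quasi-likelihood, R 4.3.3), with Benjamini-Hochberg adjustment over 16575 genes. The common dispersion was 0.0126. Standard errors were computed from each estimate and its F statistic. Shares within families were compared by exact permutation over retinas. The 14 alternative fits were median-ratio and library size scaling, no filter, DESeq2 1.42.0, limma-voom (limma 3.58.1), edgeR's likelihood ratio test, offsets corrected for length (loess span 0.3), sex as a covariate, and each of 6 retinas left out. The quasi-likelihood fit and its length-corrected form were checked on counts simulated with 1 dispersion for all genes. The other fits were not checked in this way.

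The members and lists were chosen with earlier results of these data known. All members were named, with *Yap1*, and for each pathway list the genes at the adjusted p or, with none, the highest and lowest log2 fold change. Genes named outside this rule are marked as such, except the marker genes and *Osbpl5*, named for its p. Promoter windows came from RefSeq (GRCm38.p6).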

Additional observations from a re-analysis of the deposited data

How the results depend on the processing

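Against 0 members called by the quasi-likelihood test (0.796% of all genes), 1 was called with no filter on low counts (1.22%), by DESeq2 (1.59%), by edgeR's likelihood ratio test (1.76%) and with the length correction (0.851%). With each retina left out, 0 to 1 was called (0.226% to 3.06% of all genes). That 1 was *Cdkn1c* in each. The pathway list genes at the adjusted p numbered 0 by the quasi-likelihood test with all retinas (1.49% of all genes), 8 with no filter (6.19%) and 3 by DESeq2 (5.38%). They numbered 3 by the likelihood ratio test (6.18%), 4 with the length correction (2.5%) and 0 to 5 with each retina left out (0.291% to 8.84%). The 5, of 82 tested, came without control YR613, where 8.84% of all genes tested reached the adjusted p. Of 126 log2 fold changes of members under the alternatives, 108 kept their direction and side of the adjusted p, 17 came past it, and 1 reversed. That 1 was *Ccnd1*, at 0.026 without YR711, within a range of -0.14 to 0.026 over the retinas left out. The difference in the share of *Cdk4* among the kinases, -0.27 percentage points, was -2.01 with CPM in place of TPM and -0.86 without *Cdk2*. It ranged from -0.45 (without control YR615) to -0.013 (without control YR612) over the retinas left out, and was -0.095 without YR713. The cause was not tested. With CPM the kinase shares carry gene length. No paired analysis was possible because the groups hold different mice and the labels name no litter. Depth limits the low genes, at 33 to 65 counts for *Cdk2* and at most 2 for *Mki67*.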
